A study of Mus musculus with 13 samples.

Results

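The Hox genes encode homeodomain transcription factors that tell cells where along the body axis they lie. They were taken here as all genes named Hox, a cluster letter and a number, with 1 probe of a single annotated symbol each, and with no filter on intensity. That rule gave 37 genes of the 19938 measured. The probe for Hoxb8 is shared with Hoxb7, so Hoxb8 is not a member. The study followed daily gene expression in whole back skin. The mice were C57Bl6 males, 30 days old, and their skin was labelled as anagen, the phase in which follicles make new hair. No mutation or agent is named in the labels. Mice were kept in 12 h of light and 12 h of dark, and skin was taken every 4 h, with times given as ZT, the hours since lights on. RNA of 3 mice was pooled in equal amounts for each of the 13 time points, which gave 6 dark pools (14, 18 and 22 h of the day) and 7 light pools (2, 6 and 10 h) from 39 mice. Each pool was measured on 1 array, so differences between individual mice are hidden and the number of arrays limits the precision.

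In mammals the Hox genes sit in 4 clusters, A to D, which arose by duplication, and the genes at matching places in the clusters are paralogues that share a number. Low numbers are switched on toward the head in the embryo and high numbers toward the tail, in the order of the genes along the chromosome. Adult skin keeps part of this pattern. Dermal fibroblasts hold a set of Hox transcripts that differs by body site, and Hoxc13 serves the hair follicle, where it is needed for hair keratin genes. Hox proteins bind DNA with partners of the TALE class (Pbx, Meis and Pknox), while Polycomb proteins hold silent Hox genes off and Trithorax proteins hold active ones on.

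The pools had the markers of back skin, but not in equal shares. All 9 measured markers of dermal fibroblasts and all 9 of epidermis and hair follicle were above the array background in 13 pools, and the mean log2 level of the epidermal list differed by 1.12-fold between its lowest and highest pools. Skeletal muscle markers were less even. Their mean log2 level ran between 10.95 at ZT2 and 12.11 at ZT30, a 2.24-fold range, with 9 of 10 markers above background in every pool and Tcap in none. The ZT46 pool stood apart for hepatocyte genes. The mean of 8 such markers was 9.95-fold higher there than in the lowest pool, ZT42. Alb had 10035 intensity units at ZT46 against a median of 2597. Only 2 of the 8 hepatocyte markers were above background in every pool. Results that rest on the ZT46 pool are given without it as well. In whole tissue, fewer cells of a type and less RNA per cell cannot be told apart.

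Of the 37 Hox genes, 14 were above background in all 13 pools, 6 in some pools and 17 in none. Background was set on each array as the 95th percentile of 1210 probes for receptors of smell and vomeronasal receptors, which skin should lack, and lay between 346.2 units at ZT34 and 505.4 at ZT46. The 14 are 37.8% of Hox genes, beside 53.2% of all genes. Hoxb2, Hoxb3 and Hoxc13 were also above the 99th percentile of those probes in every pool. Levels of different genes also depend on their probes, so the order of levels below is a description.

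The genes in the middle of the clusters were each above background in at least 1 pool. Of the 10 members of paralogue groups 5 to 8, 5 were above background in 13 pools, 5 in some and 0 in none, with a median level of 614.6 units. In groups 1 to 4, 5 of 11 were above background in 13 pools, 1 in some and 5 in none, at a median of 420.4 units. Groups 9 and 10 had 2 of 7 above background throughout and 5 in no pool, and groups 11 to 13 had 2 of 9 throughout and 7 in no pool. These groups were drawn after the values were seen. The shares above background in 13 pools were alike in groups 5 to 8 and 1 to 4, beside 53.2% of all genes. The 5 members of groups 5 to 8 above it in only some pools had means between 468.1 and 609.5 units.

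**Figure D1:**
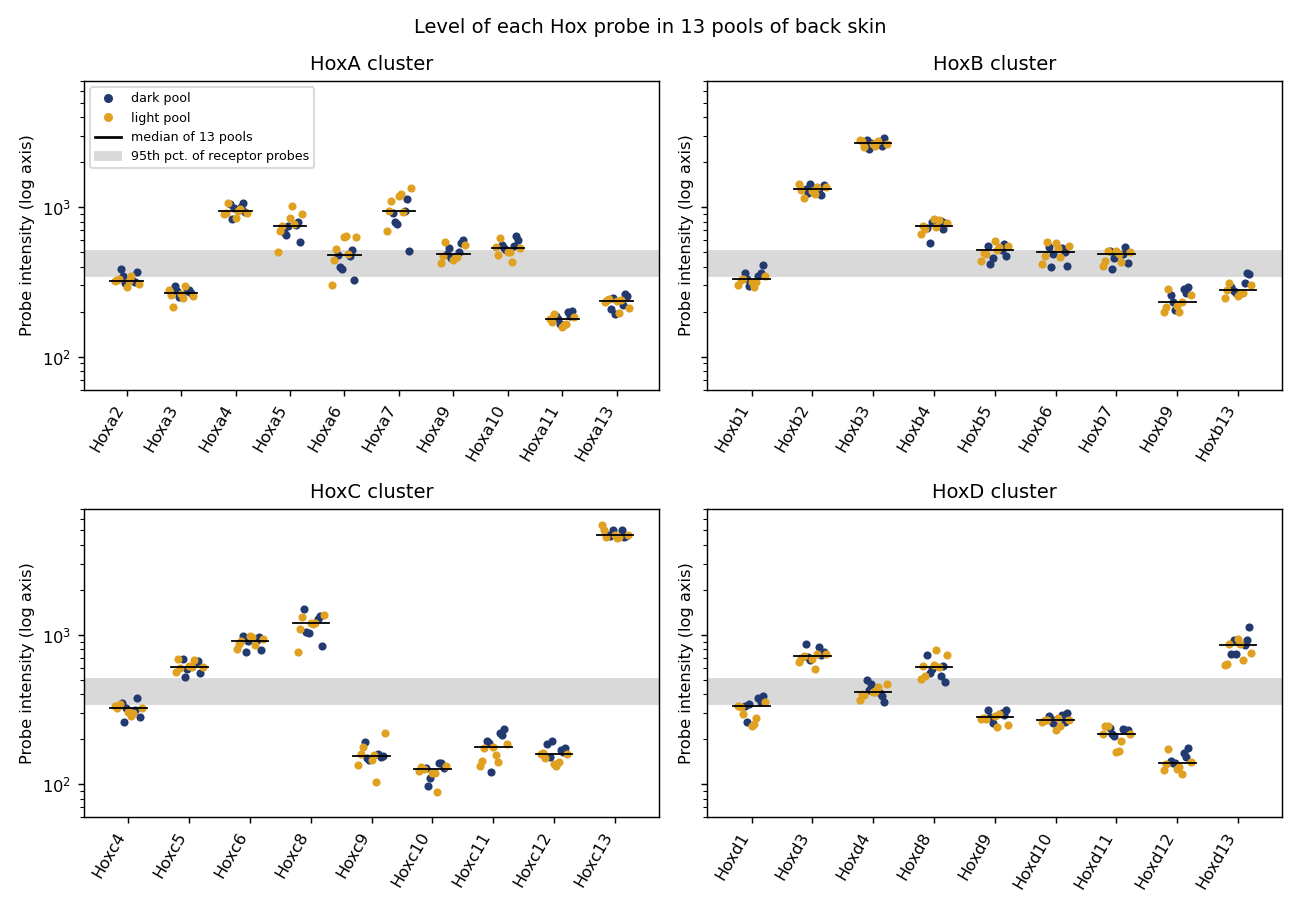
Intensity of the 37 Hox genes in the 13 pools, on a log axis, by cluster and in order of paralogue number. Points are dark and light pools, bars are medians of 13 pools, and the grey band spans the array background over the pools. Hoxc13 and Hoxb3 lie highest, Hoxd13 stands above its neighbours Hoxd11 and Hoxd12, and most members of groups 9 and above lie under the background.

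In the A cluster, on chromosome 6, the genes above background in all pools were Hoxa4, Hoxa5, Hoxa7, Hoxa9 and Hoxa10, and Hoxa6 was above it in 9. Hoxa7, a trunk gene, had the highest mean of the cluster, 962.1 ± 234.4 units (SD, 13 pools) and Hoxa4 955.9 ± 77.9. Hoxa5, which patterns the neck and upper trunk skeleton, averaged 747.6 ± 132.9 units and Hoxa6 479.9 ± 111.7. Hoxa10 and Hoxa9, genes of the lumbar region and of blood-forming cells, averaged 539.9 ± 58.2 and 504.6 ± 59.4 units. Hoxa2, Hoxa3, Hoxa11 and Hoxa13 were below background in every pool, with means between 178.8 and 329.4 units.

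Like some Hox pairs of different clusters, the neighbours Hoxa5, Hoxa6 and Hoxa7 had levels that moved together across the pools, as given further on. Their promoters are shown for that reason, from 250 bases before to 50 bases after the RefSeq start (GRCm38.p6), with capitals at CAGCTG, the letters of an E-box that muscle regulators can bind.
Hoxa5 promoter, chr6:52204538-52204837, minus strand: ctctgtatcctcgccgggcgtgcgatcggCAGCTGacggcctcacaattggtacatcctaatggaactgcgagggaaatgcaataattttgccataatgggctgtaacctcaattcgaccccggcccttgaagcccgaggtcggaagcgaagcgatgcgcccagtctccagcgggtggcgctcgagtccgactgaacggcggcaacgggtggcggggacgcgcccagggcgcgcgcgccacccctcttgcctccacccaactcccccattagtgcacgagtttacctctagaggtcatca
Hoxa6 promoter, chr6:52208623-52208922, minus strand: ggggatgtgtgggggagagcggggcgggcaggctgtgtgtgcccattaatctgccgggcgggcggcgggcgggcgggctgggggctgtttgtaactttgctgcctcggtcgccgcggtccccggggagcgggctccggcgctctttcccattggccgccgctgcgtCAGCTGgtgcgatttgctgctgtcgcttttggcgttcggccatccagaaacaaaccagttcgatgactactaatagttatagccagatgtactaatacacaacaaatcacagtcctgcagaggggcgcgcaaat
Hoxa7 promoter, chr6:52218524-52218823, minus strand: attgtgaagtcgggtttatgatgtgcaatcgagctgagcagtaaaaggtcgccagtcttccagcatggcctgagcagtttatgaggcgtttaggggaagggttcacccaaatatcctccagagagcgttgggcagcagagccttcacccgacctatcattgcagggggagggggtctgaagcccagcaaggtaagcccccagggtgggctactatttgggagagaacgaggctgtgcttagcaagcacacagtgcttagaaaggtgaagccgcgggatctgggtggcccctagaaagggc
CAGCTG is its own reverse complement, so 1 search covers both strands. It stands once in the Hoxa5 and once in the Hoxa6 window and is not in the Hoxa7 window. Over all Hox genes with a promoter entry, 21 genes with 23 windows, it was in 4 windows (17.4%, those of Hoxa3, Hoxa5, Hoxa6 and Hoxa11), beside 16.3% of 32851 mouse windows. CACGTG, the E-box letters bound by clock factors and also its own reverse complement, was in 5 Hox windows (21.7%), those of Hoxd1, Hoxd4, Hoxd10, Hoxd11 and Hoxd13, beside 7.15% of all windows. TGATTNAT, the letters of a joint Hox and Pbx site, searched on both strands, was in 2 Hox windows (8.70%), beside 3.22%. Both E-boxes end in TG, with which TGATTNAT begins, so matches can share those letters. A match is a description of the sequence.

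In the B cluster, on chromosome 11, Hoxb3 and Hoxb2, which pattern the hindbrain in the embryo, led. Hoxb3 had 2468 units at its lowest, at ZT18, a median of 2708 and 2905 at its highest, at ZT46. It had the smallest spread of all Hox genes, with a coefficient of variation of 4.83%. Hoxb2 averaged 1314 ± 87.7 units and Hoxb4 747.8 ± 71.4, each above background in 13 pools. Hoxb5, Hoxb6 and Hoxb7 lay at the background, above it in 11, 10 and 10 pools, with means between 468.1 and 507.5 units. The probe shared by Hoxb8 and Hoxb7 was above background in 13 pools, with 764.6 units at ZT46, a median of 1113 and 1279 at ZT42. Hoxb1, Hoxb9 and Hoxb13 were below background in all pools.

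The C cluster, on chromosome 15, held the brightest Hox gene. Hoxc13 had 4461 units at its lowest, at ZT30, a median of 4658 and 5401 at its highest, at ZT2, and was brighter than 95.3% of all probes. Its coefficient of variation was 6.06%. Its neighbours toward the middle of the cluster were dim: Hoxc12 averaged 160.0 ± 18.3 units, Hoxc11 175.5 ± 35.6, Hoxc10 121.6 ± 14.9 and Hoxc9 157.7 ± 27.7, all under the background in every pool. At the other end, Hoxc8, a gene of the thoracic region, averaged 1165 ± 208.1 units, Hoxc6 898.8 ± 76.9 and Hoxc5 619.7 ± 55.3, each above background throughout, while Hoxc4 at 316.6 ± 30.3 was below it. Transcripts of Hoxc4, Hoxc5 and Hoxc6 can overlap, so how signal is divided among these 3 genes is uncertain.

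In the D cluster, on chromosome 2, Hoxd13 and Hoxd3 were above background in 13 pools. Hoxd13, known for patterning digits and the urogenital tract, had 631.4 units at its lowest, at ZT2, a median of 852.6 and 1134 at its highest, at ZT46. The genes beside it, Hoxd12 at 142.8 ± 17.9 units and Hoxd11 at 216.5 ± 26.6, were below background in every pool. Across the 13 pools Hoxd13 had a correlation of 0.53 with the median of the receptor probes, given as a description. Hoxd3, a gene of the neck vertebrae, averaged 725.0 ± 71.1 units. Hoxd8 and Hoxd4 were above background in 12 and 6 pools, and Hoxd1, Hoxd9 and Hoxd10 in none.

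The clusters also hold microRNAs, among them the miR-10 and miR-196 families, each of which shares a seed, bases 2 to 8, in capitals here from RefSeq.
miR-10a-5p: uACCCUGUagauccgaauuugug
miR-10b-5p: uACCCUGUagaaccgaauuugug
miR-196a-5p: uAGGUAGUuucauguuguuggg
miR-196b-5p: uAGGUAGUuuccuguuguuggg
Both miR-10 forms share the seed ACCCUGU and all miR-196 forms the seed AGGUAGU. They are shown because both families are known to repress Hox messages. The probes of Mir10a, Mir10b, Mir196a-1, Mir196a-2 and Mir196b were below background in all 13 pools, with means between 20.6 and 211.8 units. This labelling is not made for short mature RNAs, so the mature forms were not measured here. Of 11 measured other genes within the clusters, Evx1, the homeobox gene at the end of the A cluster, was above background in 13 pools, at 546.3 units.

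Each Hox gene was then asked whether its level followed a 24 h wave. No Hox gene did at an adjusted p under 0.05. The fit was limma with cosine and sine terms and linear time on log2(intensity + 16), a scale that understates the fold of dim genes, with Benjamini-Hochberg adjustment over all 19938 genes. In the same fit 15 genes of all passed (0.0752%). At an unadjusted p under 0.05 there was 1 Hox gene, Hoxc8, of 37, beside 9.05% of all genes. The median peak-to-trough fold was 1.14 for the Hox genes and 1.10 for all genes.

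Hoxc8 had 837.5, 1165 and 1495 units as the lowest, median and highest of the dark pools, and 769.0, 1194 and 1353 units in the light pools. The groups overlap almost wholly. Its fitted wave had a fold of 1.40, an amplitude of 0.24 ± 0.08 log2 (SE) and a peak at 11.4 h, with a limma adjusted p of 0.534. The amplitude was 0.18 without the ZT46 pool, where its unadjusted p in limma was 0.056 beside 0.030 with all pools, and 0.12 with the muscle and adipocyte means in the fit. Hoxa6 had a fold of 1.48 with a peak at 8.1 h, and an amplitude of 0.28 log2 that was 0.21 without ZT46 and 0.10 with the muscle and adipocyte means. Hoxd3 had a fold of 1.18 with a peak at 15.1 h. Both Hoxa6 and Hoxd3 had a limma adjusted p of 0.557. For Hoxd3 the dark pools had 682.1, 752.4 and 865.3 units, and the light pools 587.3, 694.7 and 742.0. Hoxb3 and Hoxc13, the brightest members, had fitted folds of 1.02 and 1.07.

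The dark and light phases were compared directly, with linear time in the fit. No Hox gene passed, nor did any gene of all (0% in each direction, limma, adjusted p under 0.05). At an unadjusted p under 0.05, Hoxc12 was higher in the dark and Hoxa6 and Hoxa7 lower, 3 of 37 beside 12.6% of all genes (8.79% higher and 3.8% lower in the dark). No Hox gene had dark and light pools that did not overlap, beside 0.16% of all genes wholly above and 0.135% wholly below in the dark. Hoxc12 had 152.7, 172.1 and 195.4 units in the dark pools as lowest, median and highest, and 132.5, 149.7 and 161.4 in the light pools, under the background in both. Its difference was 0.22 ± 0.06 log2 (SE, limma adjusted p = 0.349), and 0.13 after quantile normalization.

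Hoxa7 had 510.9, 861.5 and 1134 units in the dark pools, and 689.8, 1094 and 1338 in the light pools. The ranges overlap over most of their length, and the lowest pool is ZT46. The difference was -0.38 ± 0.17 log2 (SE, limma adjusted p = 0.391), and -0.25 without the ZT46 pool. Hoxa6 had 324.1, 434.6 and 513.6 units in the dark pools, and 303.6, 529.0 and 644.3 in the light pools. Its difference was -0.33 ± 0.15 log2 (SE, limma adjusted p = 0.391), and -0.24 without ZT46. The skeletal muscle markers had a median dark minus light difference of -0.30 log2, with 0 of 10 called. With the muscle and adipocyte means in the fit, the differences were -0.12 for Hoxa7 and -0.09 for Hoxa6. For the 2 brightest members the intervals were narrow: the 95% interval of the difference ran from -0.10 to 0.11 for Hoxb3 and from -0.09 to 0.13 for Hoxc13.

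Linear drift over the 48 h was called for 0 Hox genes and 0 of all genes in either direction (0%, limma, adjusted p under 0.05). At an unadjusted p under 0.05, Hoxa5, Hoxa6, Hoxb4, Hoxb5 and Hoxc11 were higher with time and 0 Hox genes lower, 5 of 37 beside 7.99% of all genes (3.48% higher and 4.51% lower). Hoxa5 had 504.2 units at ZT2, its lowest pool, a median of 754.4 and 1019 at ZT30, its highest. Its slope was 0.24 ± 0.09 log2 per 24 h (SE, limma adjusted p = 0.560), and 0.13 without the ZT2 pool. With the muscle and adipocyte means in the fit, the slopes were 0.07 for Hoxa5, 0.08 for Hoxb4 and 0.03 for Hoxb5. Hoxb4 had 577.8 units at ZT18, a median of 747.8 and 836.6 at ZT26, with a slope of 0.13 ± 0.06 (SE, limma adjusted p = 0.606). Hoxb5 had 414.7 units at ZT18, a median of 517.6 and 595.4 at ZT26, with a slope of 0.14 ± 0.06 (SE, limma adjusted p = 0.609). The muscle markers had a median drift of 0.28 log2 per 24 h, with 0 of 10 called.

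**Figure D2:**
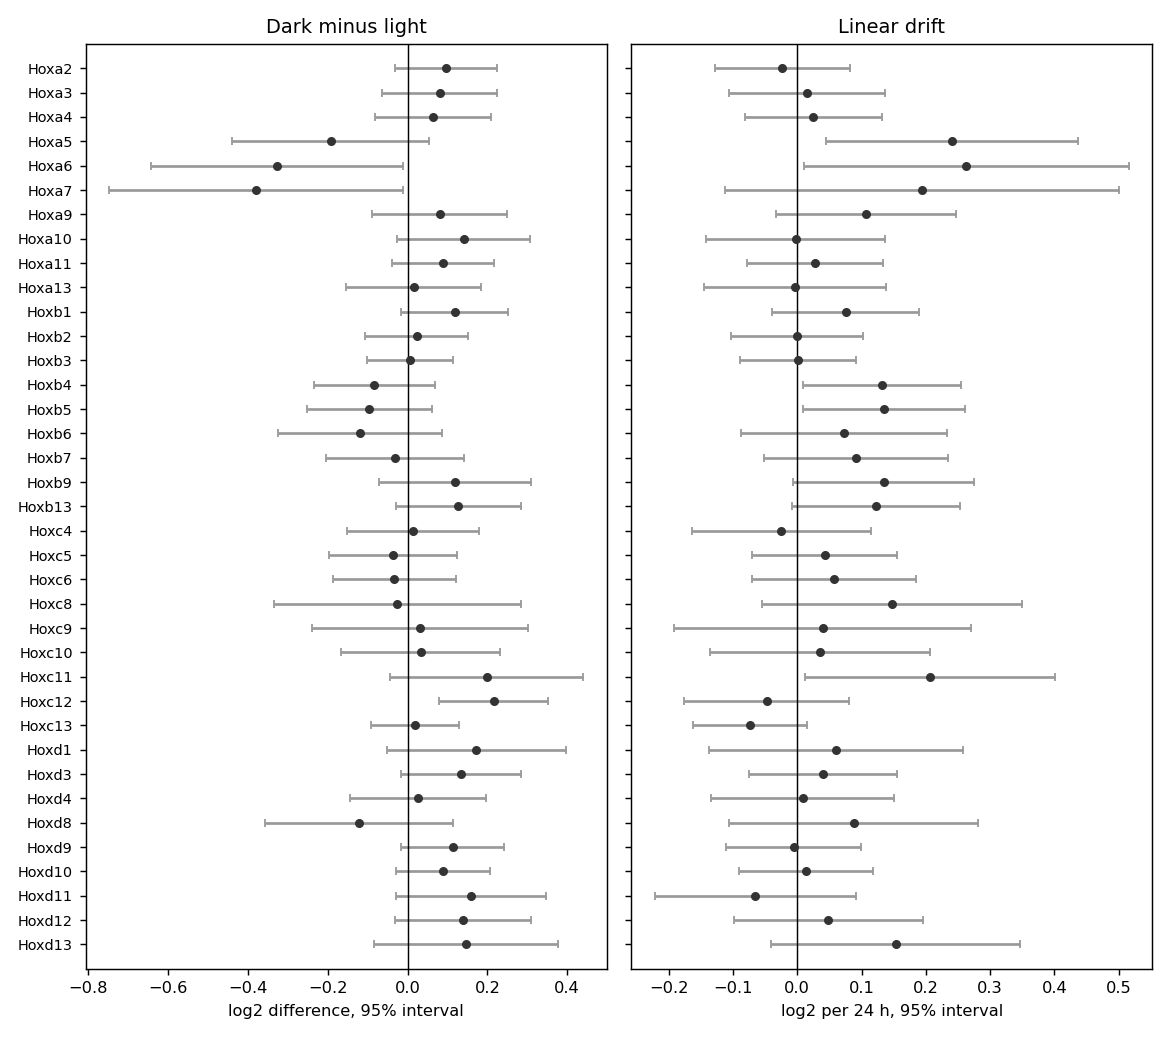
Dark minus light difference (left) and linear drift per 24 h (right) of the 37 Hox genes, in log2, with 95% intervals, by cluster and paralogue number. Nearly all intervals hold 0, Hoxa6 and Hoxa7 lie lowest in the left panel, and Hoxa6 and Hoxa5 lie highest in the right one.

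Among the members above background in 9 or more pools, Hoxa7, Hoxa6, Hoxa5 and Hoxc8 had the widest ranges between pools. This cut is not the rule of 13 pools used before, and 9 is the count of Hoxa6. Hoxa7 had the widest range of all members, 2.62-fold. That rank rests on ZT46, its lowest pool, as its next lowest, ZT2, had 689.8 units. Hoxa6, Hoxa5 and Hoxc8, all lowest at ZT2, had ranges of 2.12, 2.02 and 1.94-fold. The median was 1.45-fold over the Hox genes and 1.35-fold over all genes. The other members of groups 5 to 8 had ranges between 1.28-fold (Hoxc6) and 1.64-fold (Hoxd8), and Hoxd13 had 1.80-fold. Hoxc9 and Hoxc11, both below background, had ranges of 2.13 and 1.95-fold. Hoxa6 had 303.6 units at ZT2, 439.8 at ZT6, 529.0 at ZT10, 476.4 at ZT14, 397.6 at ZT18, 388.7 at ZT22, 636.4 at ZT26, 644.3 at ZT30, 484.0 at ZT34, 471.7 at ZT38, 513.6 at ZT42, 324.1 at ZT46 and 629.5 at ZT50. It was lowest at ZT2 and ZT46, and highest at ZT30, ZT26 and ZT50. Hoxa7 had 689.8 units at ZT2, 941.0 at ZT6, 1094 at ZT10, 921.6 at ZT14, 801.4 at ZT18, 769.6 at ZT22, 1193 at ZT26, 1234 at ZT30, 933.0 at ZT34, 948.0 at ZT38, 1134 at ZT42, 510.9 at ZT46 and 1338 at ZT50. The same pools were low and high in both genes, and their correlation over the 13 pools, 0.94, was the highest of the 666 Hox pairs, whose median was 0.16. Neighbouring genes in a cluster can share transcripts, so the probes of Hoxa6 and Hoxa7 may not be independent. Hoxa5 had correlations of 0.92 with Hoxa6 and 0.84 with Hoxa7, but 0.13 with its other neighbour, Hoxa4. Pairs in different clusters were as close, with 0.92 for Hoxb7 and Hoxc6 and 0.89 for Hoxb6 and Hoxc6.

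**Figure D3:**
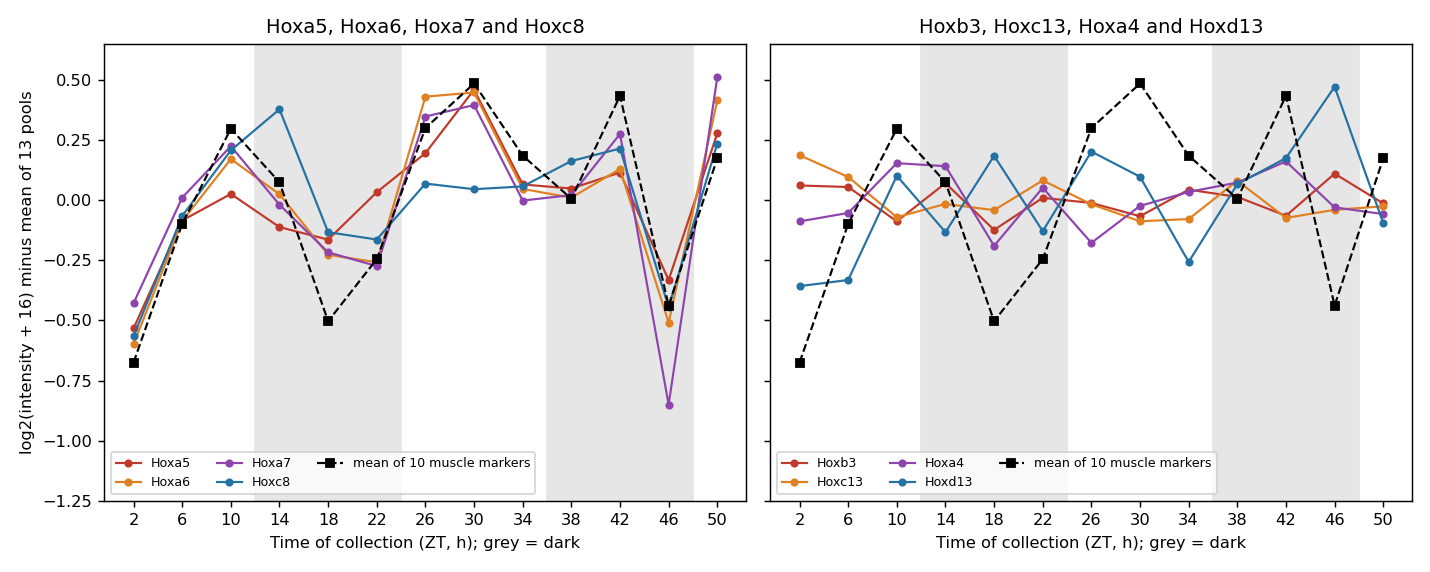
Level of Hoxa5, Hoxa6, Hoxa7 and Hoxc8 (left) and of Hoxb3, Hoxc13, Hoxa4 and Hoxd13 (right) in the 13 pools, as log2(intensity + 16) minus the gene's mean, with the mean of 10 skeletal muscle markers as a dashed line and dark hours in grey. The genes on the left are low at ZT2 and ZT46 with the muscle markers, and Hoxd13, on the right, is low at ZT2 but highest at ZT46.

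The courses of these genes were set beside that of skeletal muscle markers, whose mean was lowest at ZT2, ZT18 and ZT46 and highest at ZT30 and ZT42. Mouse back skin carries a thin sheet of striated muscle, the panniculus carnosus, at its base. The summed intensity of the 10 markers lay between 32077 units at ZT18 and 60076 at ZT42 in the dark pools, and between 28693 at ZT2 and 59665 at ZT30 in the light pools. With each gene's log2 level fitted on the mean log2 level of these markers in limma, a test chosen after the values were seen, 6 of 37 Hox genes rose with the markers and 0 fell. Over all genes tested, 0.918% rose and 0.0201% fell.

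The 6 were Hoxa5, Hoxa6, Hoxa7, Hoxb6, Hoxb7 and Hoxc8. Hoxa6 had a slope of 0.82 ± 0.11 log2 per log2 of the marker mean (SE, limma adjusted p = 0.00034), Hoxa7 0.86 ± 0.15 (adjusted p = 0.00517) and Hoxa5 0.60 ± 0.10 (adjusted p = 0.00481). Hoxc8 had a slope of 0.59 ± 0.12 (limma adjusted p = 0.0275), Hoxb6 0.40 ± 0.08 (adjusted p = 0.0331) and Hoxb7 0.33 ± 0.07 (adjusted p = 0.0492). Hoxb5 and Hoxc6 had slopes of 0.32 ± 0.08 and 0.28 ± 0.07 and missed the threshold (limma adjusted p = 0.0640 and 0.0751). All 10 members of groups 5 to 8 had a positive slope, with a median of 0.38. The 27 others had 0 called, with slopes between -0.18 and 0.17. Hoxb2 had -0.16 ± 0.07 and Hoxc13 -0.14 ± 0.06 (limma adjusted p = 0.772 and 0.784). Of groups 5 to 8, Hoxc5 and Hoxd8 were not called either (limma adjusted p = 0.670 and 0.521). A slope also depends on how much a gene varies. The correlations with the muscle mean were -0.61 for Hoxb2 and -0.63 for Hoxc13, beside 0.61 for Hoxc5 and 0.62 for Hoxd8. The median slope over all genes was -0.03.

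Of the 13 fits with 1 pool left out, Hoxa6 and Hoxa7 were called in 13, Hoxa5 in 12, Hoxc8 in 8, Hoxb6 in 6 and Hoxb7 in 2. Of 11 other alternatives Hoxa6 was called in 11, Hoxa5 and Hoxa7 in 9, Hoxc8 in 8, Hoxb6 in 7 and Hoxb7 in 4. Among the 11 is the main fit at an adjusted p under 0.10, which a gene called at 0.05 always passes. Without the ZT2 pool 2 Hox genes were called, Hoxa6 and Hoxa7, and without the ZT46 pool 3 were, Hoxa5, Hoxa6 and Hoxa7. With linear time and the 24 h wave as covariates, or with the hepatocyte mean, 1 was called, Hoxa6, and with the fibroblast mean 3 were. The muscle mean itself had a correlation of -0.59 with the hepatocyte mean, 0.50 with the fibroblast mean and -0.57 with the epidermal mean over the 13 pools. Fitted on the means of fibroblasts, epidermis and hair follicle, adipocytes, endothelium and melanocytes, 0 Hox genes were called in limma, with 2, 3, 1, 1 and 0 of 37 at an unadjusted p under 0.05, beside 7.91%, 6.69%, 6.33%, 9.66% and 2.31% of all genes. The fibroblast mean called 0.0351% of all genes, all higher, and the other 4 lists called 0%. On the hepatocyte mean 1 was called, Hoxa7 (slope -0.35 ± 0.07, limma adjusted p = 0.0301, and 0.632 without ZT46). Of all genes, 0.522% were called higher on it and 0.0301% lower. At an unadjusted p under 0.05 in limma, 12 of 37 Hox genes passed on the hepatocyte mean, beside 13.5% of all genes. The muscle mean also had 12 of 37, beside 6.11% of all genes. Whether the amount of muscle in a pool sets these Hox levels was not tested.

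**Figure D4:**
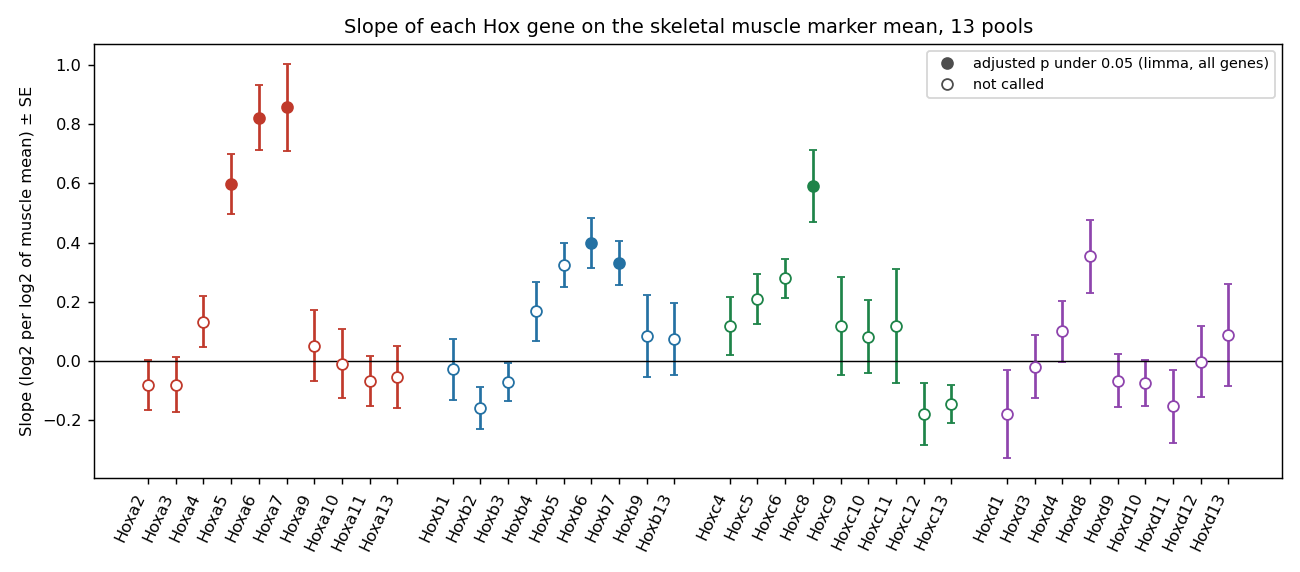
Slope of each Hox gene's log2 level on the mean log2 level of 10 skeletal muscle markers over 13 pools, as points with SE bars, by cluster and paralogue number; filled points passed an adjusted p under 0.05. The members of groups 5 to 8 all lie above 0, with Hoxa7 and Hoxa6 highest, and those of the other groups lie between -0.18 and 0.17.

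Many dim members followed the background probes, at a share near that of dim genes in general. Of the 17 Hox genes below background in every pool, 12 had a correlation over 0.5 with the median of the receptor probes, which itself lay between 91.9 units at ZT34 and 129.5 at ZT46. Of the 14 members above background in all pools 4 did: Hoxa9 (0.75), Hoxa10 (0.83), Hoxd3 (0.57) and Hoxd13 (0.53). Of the 6 above it in some pools 0 did. Of all genes other than the receptors, 66.8% of those below background in every pool, 7.7% of those above it in all pools and 29.1% of those between had a correlation over 0.5. These are descriptions over 13 pools, and they bear on how far the levels of the dim members can be read.

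Partners and regulators of Hox genes gave no calls for time or light either. Of 8 measured TALE cofactors, 27 Polycomb genes, 17 Trithorax genes, 19 genes of the signals that set Hox codes and 28 other positional factors of skin, 0 were called in limma for rhythm, drift or dark minus light, with 1, 1, 0, 4 and 2 at an unadjusted p under 0.05 for rhythm, beside 9.05% of all genes. Among TALE genes Pbx3 and Pbx2 were brightest, at 1751 and 1627 units. Pknox2 was dim, at 342.1 units and above background in 1 pool, and had the smallest rhythm p of its list (fold 1.27, limma adjusted p = 0.485). Its slope on the muscle markers was 0.35 ± 0.08 (limma adjusted p = 0.0427). It was 1 of 8 TALE genes called there, and the other lists had 0, beside 0.918% of all genes. Meis3 had a rhythm fold of 1.15.

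Among Polycomb genes Jarid2 and Ezh2, the methyltransferase that marks silent Hox genes, averaged 3415 and 3250 units with rhythm folds of 1.06 and 1.12, and Phf19 had a fold of 1.21. Among Trithorax genes the methyltransferases Kmt2d and Kmt2c averaged 2984 and 2508 units, and Setd1b and Dot1l had folds of 1.15 and 1.12. Retinoic acid is a classic inducer of Hox genes, and Aldh1a1, which makes it, had 739.6 units at its lowest, a median of 992.9 and 1468 at its highest, with a fold of 1.55 and a peak at 15.2 h (limma adjusted p = 0.275). Cyp26b1, which degrades it, had a fold of 1.26 with a peak at 14.7 h (limma adjusted p = 0.508), and the receptors Rarg and Rxra had folds of 1.05 and 1.03. Of the other positional factors, Dlx3 and Msx2, genes of the hair follicle, were brightest at 6533 and 5204 units. Alx4 and Tbx15 had rhythm folds of 1.36 and 1.33 (limma adjusted p = 0.453 and 0.508), and the slope of Tbx15 on the muscle markers was 0.43 ± 0.10 (limma adjusted p = 0.0828). Within the clusters, Mir615, Evx2 and Evx1 had rhythm folds of 1.16, 1.14 and 1.10.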

How the data were processed

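Whole back skin was measured on 13 arrays of the whole-transcript kind, 1 per pool of 3 mice, per the labels' protocols. The submitters' processing notes name Affymetrix Expression Console 1.1.1 and PLIER 2.0 without saying what each did. The authors deposited linear intensity values, judged from their range. Scaling between arrays and a genome build are not given in the sources used here. Array medians lay between 440.0 and 483.2 units.

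The table holds 35557 probes, of which 21789 have 1 gene symbol, 1621 several and 12147 none in the annotation used. RefSeq's mouse table (GRCm38.p6) held 21698 of the probes with 1 symbol and was used for names, chromosomes and gene order. The highest-mean probe stood for each of 19938 genes, which concerned 999 genes with several probes but no Hox gene. The tests were run in limma 3.58.1 (R 4.3.3) on log2(intensity + 16) over all genes. Adjustment was by Benjamini-Hochberg, with calls at an adjusted p under 0.05. They were also run on simulated data with noise drawn independently for each gene. Such data lack the shifts that many genes share across these pools, so they cannot show how the tests behave under them. Every pool came from different animals, and p-values rest on the spread among pools. Named genes were all Hox members and, of each list, the 2 with the smallest rhythm p and the 2 with the highest mean. Tbx15's slope was added after its value was seen. Members, lists and tests were chosen with earlier results of these data known. Alternatives were scaling, pseudocount, a 25th percentile filter, other probes, priors, covariates and thresholds, and leaving out each pool. Plots used matplotlib 3.10.9 (Python 3.11.15).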

Additional observations from a re-analysis of the deposited data

Results flagged for a closer look

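In 5 of 74 groups examined (37 Hox genes in 6 dark and 7 light pools), 1 pool lay far from the others by its gap over the group's range. Chance gives such a gap in about 1 of 20 groups. Hoxb4 was lowest in the dark at ZT18, with 577.8 units and a gap of 0.6573 of the range. Hoxc8 was lowest in the light at ZT2, with 769.0 units and a gap of 0.6244. Hoxc9 was highest in the dark at ZT14, with 191.0 units and a gap of 0.6812. Hoxc10 was lowest in the light at ZT34, with 88.8 units and a gap of 0.7026. Hoxc11 was lowest in the dark at ZT22, with 120.5 units and a gap of 0.6626. Hoxc9, Hoxc10 and Hoxc11 were below background in all pools.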

How the results depend on the processing

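No Hox gene was called for rhythm, drift or dark minus light under any alternative run. Of all genes, 15 were called rhythmic, and 23 with a pseudocount of 64, 23 with the 25th percentile filter, 30 with an intensity trend and robust prior, 28 at an adjusted p under 0.10, 2 with times of day as a factor and 1 with muscle and adipocyte means as covariates. Leaving out 1 pool gave 11 to 20. For dark minus light 0 genes were called, and 1 with the 25th percentile filter, 1 at an adjusted p under 0.10, 2 with muscle and adipocyte means and 2 without linear time. Leaving out 1 pool gave 0 to 2. Hox genes above background numbered 14, and 3 with the 99th percentile of receptor probes. The association with skeletal muscle called 187 genes, and 115 with linear time and the 24 h wave as covariates. It called 6 Hox genes, and 1 with those covariates, 1 with the hepatocyte mean and 3 with the fibroblast mean. Leaving out 1 pool gave 2, without ZT2, to 7, and 3 without ZT46. The cause of these shifts was not tested. Pools of the same hour on different days were not compared as pairs, and the labels give no replicate numbers. With the day of sampling as a factor in place of linear time, ZT50 was alone on its day and so did not bear on the wave. In that fit 0 Hox genes and 16 genes were called rhythmic. Signal over background limits what can be said of the 17 dim Hox genes.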
